A study of Mus musculus with 9 samples.

Results

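The leptin receptor gene Lepr was examined in mouse testis together with 3 genes tied to it, which makes 4 genes of the 22337 in the expression table. Lepr was chosen because its level was higher in Piwil4 R264W/R264W testes than in wild-type testes, Leprot because it lies next to Lepr and carries the name leptin receptor overlapping transcript, Leprotl1 as a relative of Leprot, and Socs3 as an inhibitor of leptin receptor signalling. Whole testes were taken from mice of the wild-type (WT-WT), the heterozygous Piwil4 WT/R264W (WT-KI) and the homozygous Piwil4 R264W/R264W (KI-KI) genotype at 3 weeks of age, with 3 mice in each genotype and 9 in all. The mutation replaces an arginine of PIWIL4, a PIWI protein that directs silencing of retrotransposons in fetal male germ cells, with tryptophan. It was introduced with CRISPR-Cas9 and a donor strand in C57BL/6 zygotes, so it is present in every cell of the animal and no promoter or Cre limits it to germ cells. The mice received no treatment.

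Leptin is a hormone made mostly by fat cells that reports energy stores. Its receptor is a single-pass membrane protein of the cytokine receptor family, and its long form passes the signal to the kinase JAK2 and the transcription factor STAT3, whereas short forms lack most of the part inside the cell. SOCS3 is induced by STAT3 and blocks JAK2, and LEPROT and LEPROTL1 are small membrane proteins of the endosome and Golgi that lower the amount of receptor at the cell surface. In the testis, leptin receptor RNA has been described in somatic and in germ cells, and male mice that lack leptin have impaired fertility.

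The name of Leprot was checked against the gene models first. In the GENCODE annotation of GRCm38, Lepr (ENSMUSG00000057722) lies on the plus strand of chromosome 4 at chr4:101717404-101815352 and Leprot (ENSMUSG00000035212) on the same strand at chr4:101647718-101659364. The annotated end of Leprot was 58.0 kb before the start of Lepr, the starts were 69.7 kb apart, and the genes shared 0 exonic bases. Thus the mouse models used here did not overlap, unlike the human genes, whose transcripts share their first exons, and the promoter windows of Lepr and Leprot are separate stretches of sequence. Leprotl1 (ENSMUSG00000031513) lies on chromosome 8 at chr8:34135572-34147033, minus strand, and Socs3 (ENSMUSG00000053113) on chromosome 11 at chr11:117966079-117970047, minus strand. The notes of the submitters name another build, mm39, and the expression table holds no coordinates, so these positions come from GRCm38 alone.

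The promoter windows are printed because they show that Lepr and Leprot start from different sequence. Each window runs from 250 bases before to 50 bases after a start in RefSeq (GRCm38.p6), 5′ to 3′ on the strand of the gene, and 3 of the 4 genes had an entry. Capitals mark matches, on either strand, to the GC box GGGCGG or to the STAT motif TTCNNNGAA, which do not overlap each other in these windows. The windows are Leprot at chr4:101647533-101647832 (plus strand), Lepr from its first start at chr4:101717157-101717456 (plus strand), Lepr from its second start at chr4:101717656-101717955 (plus strand) and Socs3 at chr11:117969317-117969616 (minus strand).
Leprot: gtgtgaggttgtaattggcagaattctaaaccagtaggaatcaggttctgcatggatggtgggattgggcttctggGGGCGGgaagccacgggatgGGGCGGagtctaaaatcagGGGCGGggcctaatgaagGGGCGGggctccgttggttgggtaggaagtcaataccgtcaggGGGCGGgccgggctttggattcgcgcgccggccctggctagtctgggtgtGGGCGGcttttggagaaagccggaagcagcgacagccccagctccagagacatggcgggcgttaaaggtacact
Lepr, first start: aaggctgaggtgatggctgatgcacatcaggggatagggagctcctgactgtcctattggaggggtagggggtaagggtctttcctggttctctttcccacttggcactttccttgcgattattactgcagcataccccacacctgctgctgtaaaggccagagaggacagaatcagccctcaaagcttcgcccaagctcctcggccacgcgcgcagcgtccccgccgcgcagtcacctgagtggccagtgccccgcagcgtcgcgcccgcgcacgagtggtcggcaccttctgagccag
Lepr, second start: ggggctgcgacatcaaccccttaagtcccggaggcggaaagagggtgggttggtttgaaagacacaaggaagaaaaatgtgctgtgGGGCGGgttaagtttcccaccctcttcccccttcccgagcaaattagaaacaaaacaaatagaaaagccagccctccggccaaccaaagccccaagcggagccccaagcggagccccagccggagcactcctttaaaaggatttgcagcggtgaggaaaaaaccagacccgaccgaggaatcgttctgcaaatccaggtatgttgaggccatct
Socs3: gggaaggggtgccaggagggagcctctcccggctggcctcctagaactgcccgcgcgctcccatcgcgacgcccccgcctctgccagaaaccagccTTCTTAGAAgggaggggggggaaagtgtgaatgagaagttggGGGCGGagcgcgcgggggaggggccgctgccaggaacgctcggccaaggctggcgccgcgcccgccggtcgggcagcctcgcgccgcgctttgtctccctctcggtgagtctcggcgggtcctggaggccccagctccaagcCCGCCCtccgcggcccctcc

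The Leprot window held 6 GC boxes, the window at the first Lepr start held 0 and that at the second start held 1. The Socs3 window held 2 GC boxes and 1 STAT motif, which began 154 bases before the start, a position written as -154. Of all 32851 promoter windows in the table, 35.7% held a GC box and 8.3% held a STAT motif. GC content was 60.7% for Leprot, 61.3% and 54.3% for the 2 Lepr windows and 73.3% for Socs3, against a median of 52.7% over all windows. These matches describe letters in the windows and were not tested for binding.

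Leprot and Leprotl1 are close relatives. Leprot-201 and Leprotl1-201, which are the longest annotated transcripts of the 2 genes, both have 4 exons and a coding sequence of 396 bases with the stop codon, and 275 of 396 aligned coding bases (69.4%) were identical. Lepr had 7 annotated transcripts, of which 4 were coding. They included the long form Lepr-201 with 3486 coding bases and the shorter forms Lepr-202 with 2676 and Lepr-203 with 2682. The table gives one value for the whole gene, so the signalling long form and the short forms were not told apart.

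For each gene, the levels were computed as CPM (a count divided by library size, with TMM factors between libraries), and levels of different genes were compared only as FPKM, which is also divided by transcript length. The libraries held 18.0 to 24.3 M estimated counts, and 0 counts allowed up to 3, which is 0.124 to 0.167 CPM. Piwil4 itself was at 1.59 to 1.77 CPM in WT-WT, 1.12 to 2.10 CPM in WT-KI and 1.03 to 1.39 CPM in KI-KI testes. KI-KI lay below WT-WT in every testis, with a log2 change of -0.48 (95% interval -1.03 to 0.07) that did not pass the test of edgeR (unadjusted p = 0.0784, adjusted p = 0.99985), and because the mutation changes an amino acid this level does not check the genotype labels. Over all genes tested, 5.68% had no overlap between these 2 genotypes in either direction. The testes differed strongly in how far the first wave of sperm formation had come. A spermatid score, which averages the log2 CPM of 17 markers of round spermatids, ran from 0.93 to 5.92 in WT-WT, from 0.35 to 4.89 in WT-KI and from 1.93 to 5.70 in KI-KI testes. Summed CPM of these spermatid genes ran from 69.5 to 1528, so every comparison of genotypes also carries this spread. Testis cell types were represented as the tissue label says, with summed CPM of 558 to 873 for 9 Sertoli cell genes and 180 to 446 for 8 Leydig cell genes. In whole testes, fewer cells of a type and less RNA per cell cannot be told apart.

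Lepr was a gene of low level in wild-type testes and was higher in every KI-KI testis. It was at 4.14, 3.82 and 4.24 CPM in the WT-WT testes, from 89, 78 and 88 counts. The WT-KI testes had 5.20, 3.69 and 5.78 CPM, from 116.03, 66 and 110.27 counts. The KI-KI testes had 9.16, 8.91 and 6.98 CPM, from 205, 219 and 122 counts. All 3 KI-KI testes lay above all 6 other testes, whereas the WT-KI testes overlapped with WT-WT on both sides.

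**Figure D1:**
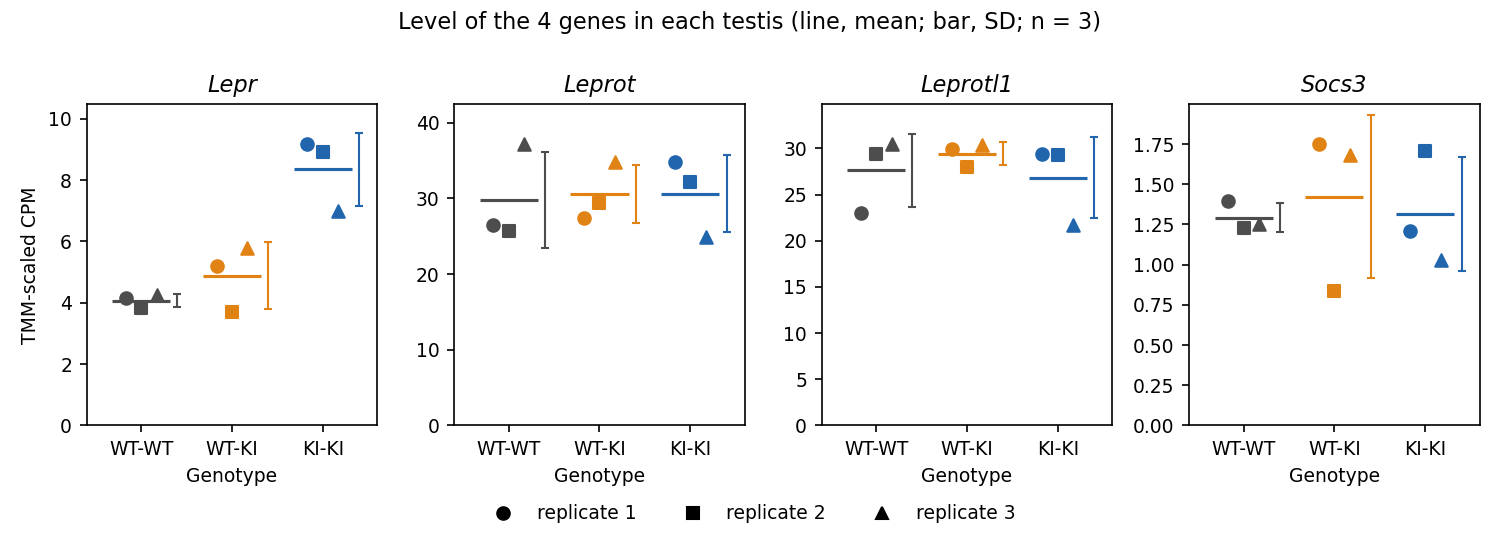
TMM-scaled CPM (y axis, from 0) of Lepr, Leprot, Leprotl1 and Socs3 in each of the 9 testes, grouped by genotype (x axis). Points are single testes with the replicate number as symbol, lines are means and bars are SD (n = 3), and the KI-KI testes stand above the others for Lepr (6.98 to 9.16 against 3.69 to 5.78 CPM) but lie within or across the ranges of the others for the remaining genes.

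The mean level of Lepr was 4.07 ± 0.220 CPM in WT-WT, 4.89 ± 1.08 CPM in WT-KI and 8.35 ± 1.20 CPM in KI-KI testes (SD, n = 3 each). The log2 change from WT-WT to KI-KI was 1.04 with a standard error of 0.17, which is 2.05-fold. Because Lepr was picked for this difference, the value is a description and carries no test, and over all genes 2.12% had 3 KI-KI testes above all 3 WT-WT testes. KI-KI was higher than WT-KI by 0.77 on the log2 scale (standard error 0.22), where 3.37% of all genes had KI-KI testes above all WT-KI testes, and WT-KI exceeded WT-WT by 0.26 (standard error 0.22). These comparisons share libraries with the one that picked Lepr, so they were not tested either. Leaving out each testis in turn gave log2 changes of 0.97 to 1.15 for KI-KI against WT-WT and of 0.61 to 0.91 for KI-KI against WT-KI.

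The stage of the testis was compared with the level of Lepr because it varies within every genotype. Testes of similar score can be set side by side. The KI-KI testis with a score of 5.70 had 6.98 CPM of Lepr and the WT-WT testis with a score of 5.92 had 4.14 CPM. At scores of 1.93 and 2.19, the KI-KI testis had 9.16 CPM and the WT-WT testis 3.82 CPM. At scores of 3.43 and 3.16, the KI-KI testis had 8.91 CPM and the WT-KI testis 3.69 CPM. Since all KI-KI testes lay above all others, any such pair had to come out this way, and these values show only which stages the testes had. With the score as a covariate in a fit of all 9 libraries, the log2 change was 1.06 (standard error 0.19) for KI-KI against WT-WT and 0.81 (standard error 0.19) for KI-KI against WT-KI. These changes rest on the values that picked Lepr and are no support for a difference at equal stage.

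The change of Lepr per unit of the score, which the choice of Lepr did not use, was -0.04 on the log2 scale with a 95% interval of -0.13 to 0.05 (adjusted p = 0.476 over all genes, quasi-likelihood test of edgeR). Over all 15771 genes in that fit, 24.9% passed an adjusted p of 0.05, so a trend with stage was common among genes but was not detected for Lepr.

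**Figure D2:**
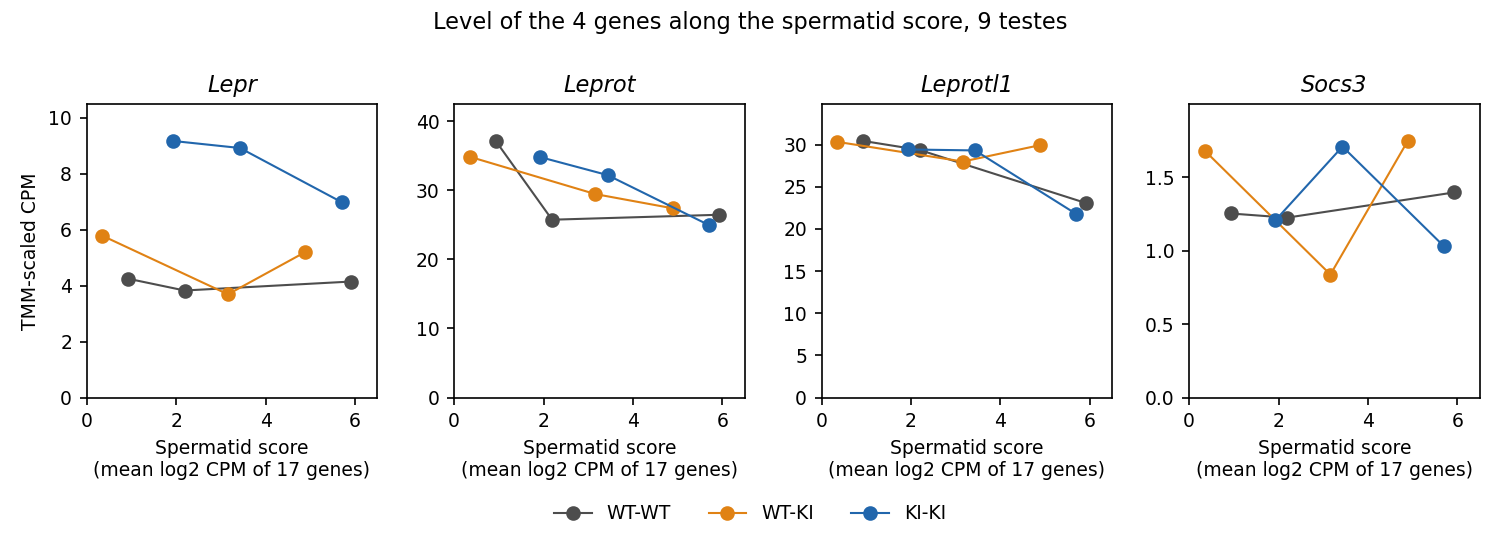
TMM-scaled CPM (y axis, from 0) of the 4 genes against the spermatid score of the testis (x axis, mean log2 CPM of 17 round spermatid genes). Points are the 9 testes and lines join testes of 1 genotype in order of score. The KI-KI line of Lepr runs above the other lines, between 6.98 and 9.16 CPM, and Leprot runs from 34.8 and 37.1 CPM at the 2 lowest scores to 24.9 and 26.4 CPM at the 2 highest.

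Levels of markers of the somatic cells were read beside Lepr. The 8 Leydig cell genes summed to 426, 208 and 180 CPM in the WT-WT testes, to 291, 278 and 181 CPM in the WT-KI testes and to 283, 445 and 446 CPM in the KI-KI testes, with none of the 8 at 0. Their median log2 change was 0.31 for KI-KI against WT-WT and 0.69 for KI-KI against WT-KI. An unadjusted p of 0.05 was passed by 0 and 1 of the 8, against 1.26% and 2.22% of all genes in these 2 comparisons. Lepr in the same testes, in the same order of replicates, was at 4.14, 3.82 and 4.24 CPM in WT-WT. It was at 5.20, 3.69 and 5.78 CPM in WT-KI and at 9.16, 8.91 and 6.98 CPM in KI-KI testes. The part of Leydig cells in the change of Lepr was not tested. Endothelial genes summed to 31.5 to 37.3 CPM in WT-WT and to 30.3 to 40.7 CPM in KI-KI testes, macrophage genes to 61.4 to 76.3 and 72.2 to 86.0 CPM, and stromal genes to 181 to 353 and 265 to 322 CPM, and these ranges overlapped. Adipocyte genes summed to 4.31 to 8.57 CPM in WT-WT and 4.87 to 17.9 CPM in KI-KI testes, again overlapping, and to 4.15 to 8.88 CPM in WT-KI testes, with none of the 6 at 0. The median log2 change of the 4 adipocyte genes tested was 0.80 for KI-KI against WT-WT and 1.305 for KI-KI against WT-KI, with 0 of 4 past an unadjusted p of 0.05 in either. Singly, the KI-KI testes had adipocyte sums of 4.87, 11.7 and 17.9 CPM, and their Lepr levels were 9.16, 8.91 and 6.98 CPM. The highest adipocyte sum in the other genotypes was 8.88 CPM. The part of fat cells in the change of Lepr was not tested.

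Leprot, the neighbour of Lepr, had the highest level per transcript length of the 4 genes and did not follow Lepr. It was at 26.4, 25.7 and 37.1 CPM in the WT-WT testes, at 27.4, 29.4 and 34.8 CPM in the WT-KI testes and at 34.8, 32.2 and 24.9 CPM in the KI-KI testes. The 3 genotypes overlapped, with high and low testes in each. The log2 change was 0.04 for KI-KI against WT-WT with a 95% interval of -0.43 to 0.51, 0.01 for KI-KI against WT-KI (-0.37 to 0.38) and 0.03 for WT-KI against WT-WT (-0.40 to 0.47). The adjusted p of edgeR's quasi-likelihood test was at least 0.997 in the 3 comparisons. The upper bound of 0.51 for KI-KI against WT-WT lies below the value of 1.04 found for Lepr in the same libraries, and the difference between the genes was not tested because Lepr was chosen by that value. In FPKM, Leprot was 18.6 to 25.4 times Lepr in WT-WT, 15.1 to 23.2 times in WT-KI and 10.2 to 11.1 times in KI-KI testes, a ratio that also rests on the values that picked Lepr.

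Leprot was lower in testes with more spermatid RNA. Its level fell by 0.09 on the log2 scale per unit of the spermatid score (95% interval -0.14 to -0.03, adjusted p = 0.0232, edgeR's quasi-likelihood test over all genes, with genotype in the fit). Genes that fell with the score made up 7.78% of all genes tested and genes that rose 17.1%. The call was lost without WT-WT replicate 3 (adjusted p = 0.128), without WT-KI replicate 3 (0.0605), without KI-KI replicate 1 (0.0626) or without KI-KI replicate 3 (0.101), and held without any one of the other 5 testes. Over all genes, 301 to 596 fell with the score in those 4 fits, against 1227 with all testes.

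Leprotl1, which like Leprot limits receptors at the cell surface, showed little spread between testes. It was at 23.0, 29.4 and 30.4 CPM in WT-WT, at 29.9, 28.0 and 30.3 CPM in WT-KI and at 29.4, 29.3 and 21.7 CPM in KI-KI testes. The low values, 23.0 and 21.7 CPM, were those of the 2 testes with the highest spermatid scores, and the other 7 testes lay between 28.0 and 30.4 CPM. The log2 change was -0.04 for KI-KI against WT-WT (95% interval -0.45 to 0.37), -0.13 for KI-KI against WT-KI (-0.47 to 0.20) and 0.09 for WT-KI against WT-WT (-0.24 to 0.42), with an adjusted p of at least 0.948 in edgeR's quasi-likelihood test. The slope on the score was -0.07 per unit (95% interval -0.12 to -0.01) and its adjusted p was 0.0688. Without WT-KI replicate 1, the slope passed (adjusted p = 0.0103).

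Socs3, the feedback inhibitor of JAK2, had the lowest counts of the 4 genes. The WT-WT testes had 1.40, 1.23 and 1.25 CPM, from 30, 25 and 26 counts. The WT-KI testes had 1.75, 0.838 and 1.68 CPM, from 39, 15 and 32 counts. The KI-KI testes had 1.21, 1.71 and 1.03 CPM, from 27, 42 and 18 counts. The genotypes overlapped, and KI-KI differed from WT-WT by 0.03 on the log2 scale with a 95% interval of -0.63 to 0.69. The change was -0.11 for KI-KI against WT-KI (-0.98 to 0.76) and 0.14 for WT-KI against WT-WT (-0.67 to 0.95), and the adjusted p was at least 0.959 by edgeR's quasi-likelihood test. The slope of Socs3 on the score was -0.004 per unit, with a 95% interval of -0.17 to 0.16 (adjusted p = 0.976).

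Ordered by mean FPKM over the 9 testes, Leprot (15.6, range 12.2 to 19.6) came first, then Leprotl1 (9.49, range 6.98 to 10.7), Lepr (1.03, range 0.65 to 1.64) and Socs3 (0.513, range 0.32 to 0.67). This order was the same in 9 of 9 testes. The ranges of Lepr and Socs3 over the testes overlapped between 0.65 and 0.67 FPKM, and within a testis Lepr was 1.36 to 3.49 times Socs3. The ranges of the other neighbours in the order did not overlap.

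The genes around Lepr were read next. On its upstream side, Ak4, a mitochondrial adenylate kinase, was at 9.10 to 12.9 CPM and changed by -0.10 on the log2 scale from WT-WT to KI-KI (95% interval -0.49 to 0.29), and Dnajc6, which encodes the clathrin uncoating factor auxilin, was at 0.402 to 1.82 CPM and changed by -0.23 (-1.72 to 1.25). Neither passed the test in a comparison of genotypes (adjusted p of at least 0.948, edgeR's quasi-likelihood test). The FPKM of Ak4 went the other way, with 3.19 to 5.35 in WT-WT and 4.80 to 8.33 in KI-KI testes (means 4.58 and 6.35). Why the measures differed was not tested. Dnajc6 rose with the spermatid score by 0.32 per unit (95% interval 0.14 to 0.50, adjusted p = 0.0143). On the downstream side, Pramel17 and Pramel18 had 0 counts in all 9 testes and C130073F10Rik had at most 0.0448 CPM, which is below what 3 counts make in any library. The interval for Dnajc6 allows changes in either direction as large as that seen for Lepr.

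**Figure D3:**
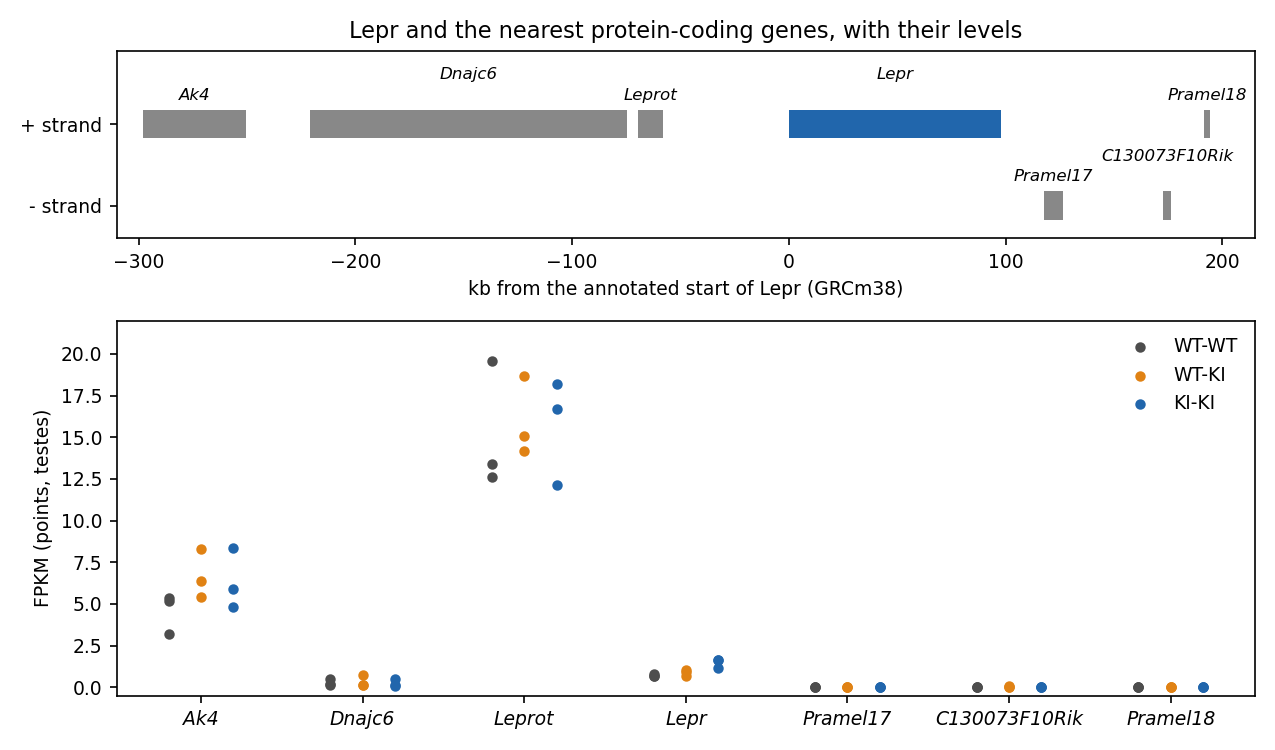
The upper panel maps Lepr (blue) and the 3 nearest protein-coding genes on each side in kb from the annotated start of Lepr on GRCm38, by strand. The lower panel gives the FPKM of each gene in the 9 testes by genotype, with Leprot highest (12.2 to 19.6 FPKM) and the 3 genes downstream of Lepr at or near 0.

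The other genes of the leptin pathway were taken from lists of 51 genes, of which 49 were tested for KI-KI against WT-WT and 48 in the other comparisons. For KI-KI against WT-WT, 0 of 49 passed an adjusted p of 0.05 and 0 passed an unadjusted p of 0.05 in edgeR's quasi-likelihood test, and DESeq2 also gave 0 and 0. Over all genes in edgeR, 1.26% passed the unadjusted threshold and 0 the adjusted one, whereas 1 gene passed the adjusted threshold in DESeq2. The median log2 change of the lists was -0.09, with 15 of 49 genes above 0, beside a median of -0.005 over all genes tested. For KI-KI against WT-KI, 1 of 48 passed the unadjusted threshold, against 2.22% of all genes, and for WT-KI against WT-WT 0 of 48 did, against 1.11%. In both comparisons 0 of the listed genes passed the adjusted threshold in edgeR and in DESeq2. Over all genes, DESeq2 gave 4 higher and 1 lower past the adjusted threshold for KI-KI against WT-KI and 0 for WT-KI against WT-WT, and edgeR gave 0 in both. These small counts moved with single testes, as did the counts over all genes. For KI-KI against WT-WT, 2 genes were higher and 1 lower at the unadjusted threshold without WT-WT replicate 1, 1 was higher without KI-KI replicate 2 and 1 was lower without KI-KI replicate 3. Over all genes, 690 were higher and 474 lower of 15655 without WT-WT replicate 1, 33 were higher of 15817 without KI-KI replicate 2 and 89 were lower of 15744 without KI-KI replicate 3. For KI-KI against WT-KI, 6 were lower without WT-KI replicate 2, and 1 was lower without WT-KI replicate 1, WT-KI replicate 3, KI-KI replicate 1 or KI-KI replicate 3. Over all genes, 755 of 15819 were lower without WT-KI replicate 2, and between 59 and 231 without one of the other 4.

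RNA of the ligand was barely present in the testes, and leptin protein was not measured. Leptin itself (Lep) was at 0.245 to 0.652 CPM in WT-WT, at 0.158 to 0.224 CPM in WT-KI and at 0.244 to 0.671 CPM in KI-KI testes, from 3 to 15 counts per library. Its log2 change for KI-KI against WT-WT was 0.25 with a 95% interval of -1.14 to 1.64.

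The kinase and the transcription factors below the receptor did not pass the test. Jak2, the kinase bound to the receptor, was at 18.1, 22.7 and 27.0 CPM in WT-WT and at 23.3, 20.3 and 17.5 CPM in KI-KI testes, a log2 change of -0.15 (95% interval -0.59 to 0.29). Stat3 was at 45.5, 56.7 and 60.1 CPM in WT-WT and at 51.8, 56.8 and 50.4 CPM in KI-KI testes, a log2 change of -0.03 (-0.33 to 0.27). In both genes the genotypes overlapped. Sh2b1, an adaptor that enhances JAK2 activity, changed by -0.13 (-0.37 to 0.11), and none of the 10 genes of the JAK2 and adaptor list or the 4 STAT factors passed the unadjusted threshold in any of the 3 comparisons of genotypes.

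The inhibitors and the genes that STAT3 activates also showed no call between genotypes. Ptpn1, which encodes the phosphatase PTP1B that removes phosphate from JAK2, was at 91.9 to 104 CPM in WT-WT and 98.2 to 108 CPM in KI-KI testes, a log2 change of 0.06 (95% interval -0.14 to 0.25). The 7 other genes of the SOCS family had a median log2 change of -0.09 and the 9 STAT3 target genes one of -0.17, with 1 of the 9 above 0. The median over all genes tested was -0.005, and neither list had a gene past the unadjusted threshold for KI-KI against WT-WT. Of the 4 phosphatase and PIAS genes and the 4 genes of receptor trafficking, 0 passed the unadjusted threshold.

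Among related receptors, the prolactin receptor Prlr was the single listed gene past the unadjusted threshold. Prlr was at 25.7, 23.6 and 29.7 CPM in KI-KI testes, at 16.9, 19.4 and 13.8 CPM in WT-KI testes and at 24.6, 21.1 and 16.2 CPM in WT-WT testes. KI-KI lay above WT-KI in every testis and overlapped with WT-WT. The log2 change was 0.66 for KI-KI against WT-KI (95% interval 0.27 to 1.04), and its adjusted p of 0.948 in edgeR's quasi-likelihood test did not pass. The median change of the 8 Leydig cell genes in the same comparison was 0.69, and their part in the value of Prlr was not tested. Il6st, the shared receptor chain gp130 of the interleukin 6 family, changed by -0.04 for KI-KI against WT-WT (-0.35 to 0.26), and Ghr, the growth hormone receptor, by -0.28 (-1.02 to 0.47).

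Testes of 2 genotypes did not overlap for some of these genes, named here after their values were seen. For KI-KI against WT-WT these were 3 of 49, against 5.68% of all genes, namely Socs1 (log2 change -0.25), Cntfr (-0.32), the receptor of ciliary neurotrophic factor, and Bbs2 (-0.15). For KI-KI against WT-KI they were 3 of 48, against 7.15%, namely Prlr, Csf3r (0.56), the receptor of a granulocyte growth factor, and Socs7 (0.05). For WT-KI against WT-WT it was Socs7 (-0.14), against 5.31% of all genes. These shares lay near or below those of all genes.

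**Figure D4:**
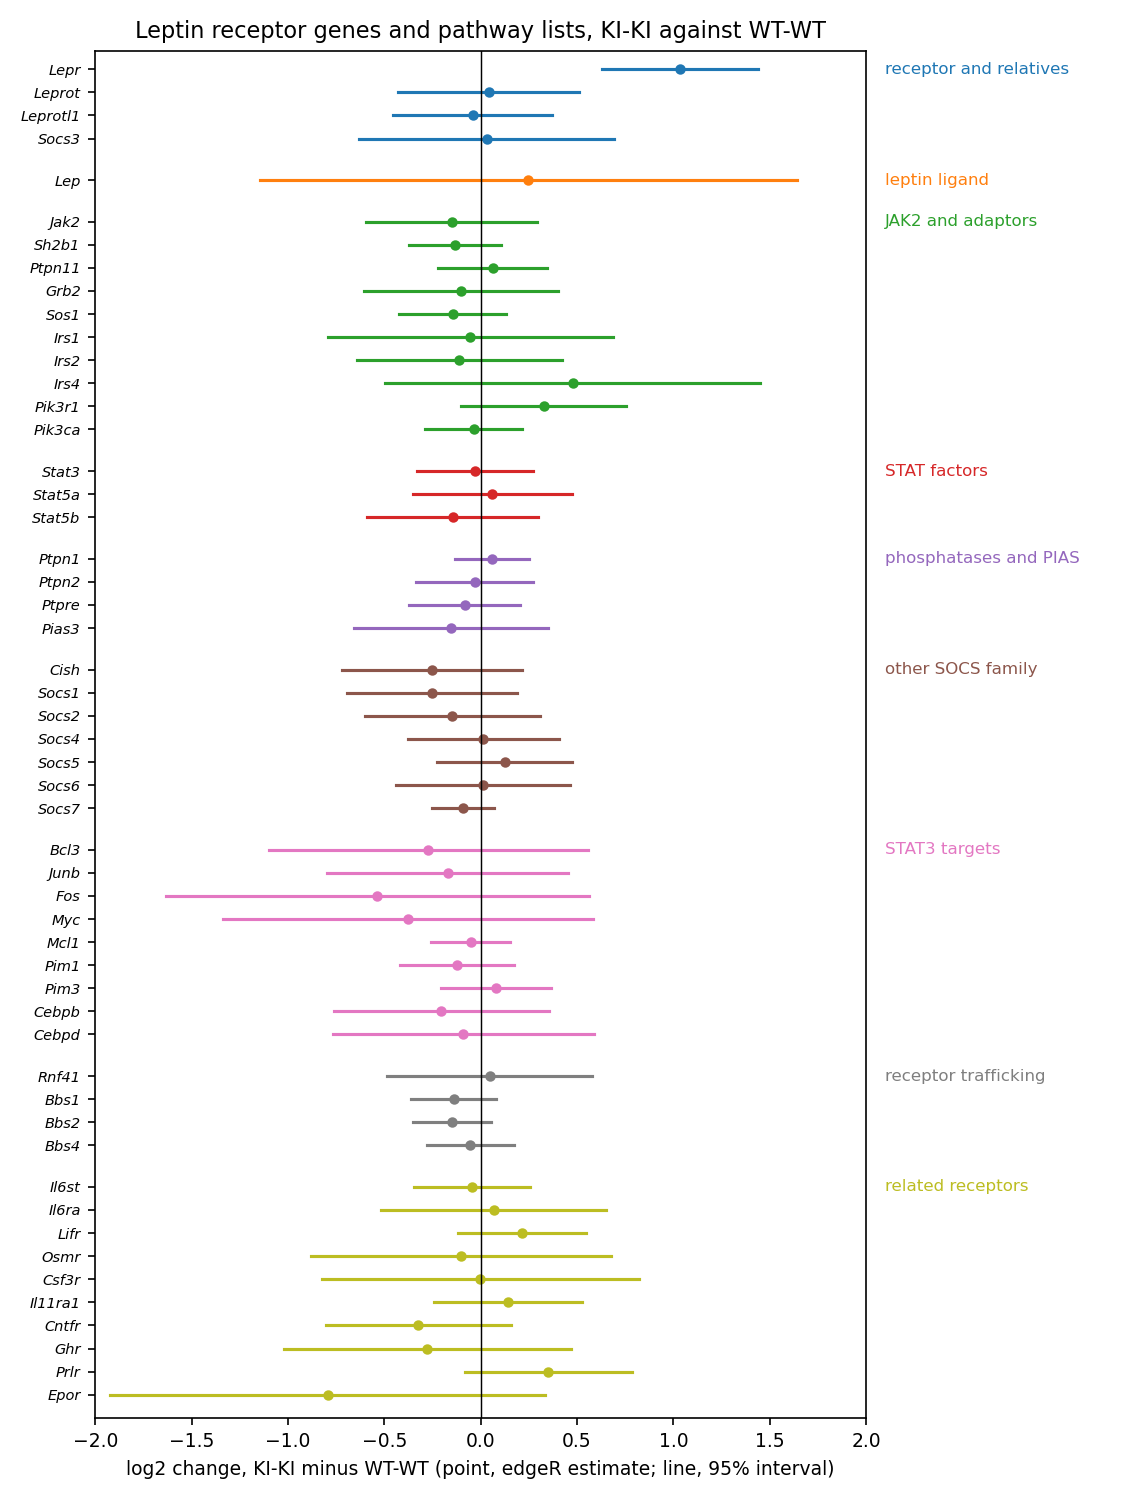
Log2 change of the 4 genes and of tested pathway genes for KI-KI minus WT-WT (x axis), grouped by role. Points are edgeR estimates and lines are 95% intervals, and all pathway intervals drawn include 0. Lepr was chosen for this difference, so its interval (0.63 to 1.44) is drawn as a description and is no test against 0.

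Some of these genes moved with the spermatid score, but their share was below the 24.9% of all genes that did so in either direction. Of 48 pathway genes tested, 3 rose and 5 fell at an adjusted p of 0.05 in edgeR's quasi-likelihood test, against 17.1% and 7.78% of all genes. The rising genes were Irs4, an insulin receptor substrate (0.22 per unit on the log2 scale, 95% interval 0.09 to 0.36, adjusted p = 0.0209), Rnf41, a ubiquitin ligase that acts on cytokine receptors (0.11, 0.06 to 0.15, adjusted p = 0.00517), and Prlr (0.08, 0.03 to 0.14, adjusted p = 0.0407). Of the falling genes, the steepest were Socs6 (-0.09, -0.15 to -0.04, adjusted p = 0.0124), Grb2, an adaptor to the Ras pathway (-0.09, -0.15 to -0.04, adjusted p = 0.0201), and Socs4 (-0.09, -0.15 to -0.03, adjusted p = 0.0245). The number of falling genes was 0 without WT-WT replicate 3 or KI-KI replicate 3, 1 without WT-WT replicate 1 or KI-KI replicate 1, 2 without WT-KI replicate 3, 3 without KI-KI replicate 2 and 13 without WT-KI replicate 1, and the number of rising genes was 0 without WT-WT replicate 1. The counts over all genes moved as well. Falling genes numbered 1227 with all testes, 301 and 305 without WT-WT or KI-KI replicate 3, 313 and 596 without WT-WT or KI-KI replicate 1, 490 without WT-KI replicate 3, 792 without KI-KI replicate 2 and 2677 without WT-KI replicate 1, and rising genes 2704 with all testes and 1612 without WT-WT replicate 1.

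The genes whose log2 CPM varied most like that of each member over the 9 testes were found among 14478 genes with a mean of at least 1 CPM. For Lepr these were Fras1 (Pearson r = 0.923), an extracellular matrix protein, Timp2 (0.892), an inhibitor of matrix metalloproteinases, BC029722 (0.870), Chst2 (0.847), a sulfotransferase, and Mdp1 (0.822). Fras1 was at 11.3 to 15.0 CPM in WT-WT, 14.1 to 15.5 CPM in WT-KI and 21.3 to 26.5 CPM in KI-KI testes, so it had the same split between KI-KI and the others as Lepr. Timp2 was at 163 to 170 CPM in WT-WT, 161 to 174 CPM in WT-KI and 179 to 198 CPM in KI-KI testes. The likeness to Lepr carries the difference that picked Lepr.

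The other genes had closer partners than one another. Tmed2 (r = 0.981) and Prdx1 (0.979) were among the genes that varied most like Leprot, and Leprotl1 varied most like Ktn1 (0.974), Usf3 (0.967) and Sft2d2 (0.967). For Socs3 the closest genes were Hspa13 (0.951), Gbe1 (0.932) and 3830403N18Rik (0.930). Between the members, r was 0.657 for Leprot with Leprotl1, 0.291 for Lepr with Leprot, 0.008 for Lepr with Leprotl1 and 0.316 for Lepr with Socs3. All these values rest on the same 9 testes, which share their libraries and their spread in stage, and serve as descriptions.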

How the data were processed

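RNA was extracted from whole testes with TRIzol, and mRNA libraries were sequenced as paired-end reads. Per the study's methods and the submitters' notes, the authors filtered reads with fastp (version 0.18.0), assembled transcripts on a reference with StringTie (version 1.3.1) and computed FPKM. Both FPKM and estimated counts were deposited for every gene, and 89.2% of the estimated counts were whole. The notes name the build mm39. The aligner and annotation release are not given in the sources used here, nor whether strand was used.

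Estimated counts were rounded and analysed in R (version 4.3.3) with edgeR (version 4.0.16), with the filterByExpr filter and TMM factors, by two-sided quasi-likelihood tests on each pair of genotypes, and p-values were adjusted over all genes by the Benjamini-Hochberg method. Slopes on the spermatid score (prior count of 1) used all 9 libraries with genotype as a term. Other settings were DESeq2 (version 1.42.0) and edgeR with its size factors, other filters, limma (version 3.58.1) on FPKM as log2 values with pseudocounts of 0.1 and 1 (mean FPKM of 0.5 or more), a single fit of all libraries, the score as covariate, a replicate block and each library left out. A gene below the filter in a fit has no test there.

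Named genes were the 4 genes, 7 preset pathway genes and any listed gene past an unadjusted p of 0.05 between genotypes, the 3 steepest listed genes in each direction on the score, 3 protein-coding neighbours on each side of Lepr, and the genes most alike to each member. Piwil4 was named outside this rule, as were pathway genes whose genotypes did not overlap, and genes that are not reported here were left out of the text. The members and lists were chosen with earlier results of these data known. Downstream neighbours were matched by gene identifier, and 22232 identifiers of 22337 were in the annotation. Each genotype has 3 mice, and nothing in the labels says that mice were littermates. Estimated counts give a precision limited by counting, to which the spread between mice adds. On simulated counts for KI-KI against WT-WT (15351 genes), 27.3% of genes changed by 1 on the log2 scale and 68.4% of those changed by 2 were recovered. The share of false calls on these counts was 4.61%. In the testes, 1.26% of all genes passed an unadjusted p of 0.05 in edgeR's quasi-likelihood test for this comparison. Whether recovery was as high in the testes was not tested. For the slope (15623 genes), 82% of genes with a slope of 0.3 were recovered. Recovery of slopes as small as those of Leprot (-0.09) and Leprotl1 (-0.07) was not tested. Marker lists not described singly are given under other observations.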

Additional observations from a re-analysis of the deposited data

How the results depend on the processing

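Of 358 values computed under other settings, 295 kept their direction and their side of the threshold, or stayed close to the reported value. Lepr had a positive change in all settings of each comparison of genotypes. It was 0.525 for KI-KI against WT-WT and 0.397 for KI-KI against WT-KI with limma on log2(FPKM + 1), whose pseudocount is as large as the FPKM of Lepr. Lepr was picked for its higher level in KI-KI testes. The sign of its changes in KI-KI was thus given by that choice and is no support. Leprot, Leprotl1 and Socs3 passed no threshold between genotypes in any setting, and most of their changes turned sign in at least 1 setting. Leprotl1 in KI-KI against WT-KI kept its sign in all 15 (-0.2003 to -0.0031). With limma, Leprot in KI-KI against WT-KI was -0.0363 (pseudocount 0.1) and -0.0337 (pseudocount 1). With the score as a covariate, Leprotl1 in KI-KI against WT-WT was 0.0057. The cause of these turns was not tested.

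The correlation of deviations between same-numbered testes ran from -0.734 to 0.784, and that between testes of different numbers from -0.81 to 0.804. The deviations carry the spread in stage, so they cannot settle whether replicate numbers pair the testes. With the replicate number as a block, Socs3 in KI-KI against WT-WT and Leprot in KI-KI against WT-KI were each at -0.0001, and on the spermatid score 1 pathway gene rose and 3 fell. Over all 15771 genes, 2386 rose and 695 fell with that block. The block ended no other call.

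Leaving out each testis in turn gave, for KI-KI against WT-WT, -0.0552 to 0.2376 for Leprot, -0.1553 to 0.0876 for Leprotl1 and -0.2056 to 0.1739 for Socs3, with 0 to 2 pathway genes higher and 0 to 1 lower at the unadjusted threshold. For KI-KI against WT-KI it gave -0.0925 to 0.1322 for Leprot and -0.3749 to 0.0747 for Socs3, with 0 to 6 pathway genes lower. For WT-KI against WT-WT it gave -0.0748 to 0.2251 for Leprot, -0.024 to 0.1639 for Leprotl1 and -0.0358 to 0.418 for Socs3. Over all genes, 33 to 690 were higher and 53 to 474 lower in the fits of KI-KI against WT-WT. In those of KI-KI against WT-KI, 59 to 755 were lower. Slopes on the score ran from -0.1122 to -0.0693 for Leprot, from -0.0896 to -0.0473 for Leprotl1 and from -0.0544 to 0.0354 for Socs3, and 0 to 4 pathway genes rose and 0 to 13 fell. Over all genes, 1612 to 3372 rose and 301 to 2677 fell in those fits.

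The slope of Leprotl1 passed the threshold without a genotype term (-0.067), with limma on log2(FPKM + 0.1) (-0.0892) and on a score of late spermatocyte genes (-0.7873 per unit of that score). On that score 11 pathway genes fell, as did 2294 of all 15771 genes tested. Socs3 had a slope of 0.0005 with at least 10 counts in every library. With limma 1 pathway gene rose, as did 2048 of all 14154 genes tested. With the score as a covariate, 2 pathway genes were higher in KI-KI than in WT-WT and 2 than in WT-KI at the unadjusted threshold, and 1 was lower in WT-KI than in WT-WT, as in a single fit of all libraries. Over all 15771 genes, 203, 267 and 318 were called in these directions with the covariate, and 180 were lower in the single fit. Socs3 had 15 to 42 counts per library, and every comparison has 3 mice per genotype.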

Other observations

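Dividing the deposited count, scaled to library size, by the FPKM gives the transcript length that the FPKM assumes. For Leprot, Leprotl1 and Socs3 it was 1.022 to 1.035 times the longest annotated transcript in every testis. For Lepr it was 5.50 to 5.71 kb, which is 0.992 to 1.03 times Lepr-203 (5542 bases, a short form with 2682 coding bases), whereas Lepr-201 (the long form) has 4127 bases. The assumed length is that of a gene model in an annotation release not given in the sources used here, so it does not say which form was present.

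Other marker lists overlapped between WT-WT and KI-KI testes. For KI-KI against WT-WT, 1 of 9 Sertoli cell genes passed an unadjusted p of 0.05, against 1.26% of all genes. For KI-KI against WT-KI, 2 of 9 tested genes of undifferentiated spermatogonia passed it (median log2 change -0.26), against 2.22%. The summed CPM in WT-WT and KI-KI testes was 7597 to 9858 and 7931 to 9747 for late spermatocyte genes, 1592 to 2140 and 1457 to 2121 for early spermatocyte genes, 128 to 160 and 128 to 152 for genes of undifferentiated spermatogonia, and 118 to 242 and 154 to 190 for peritubular myoid genes. Skeletal muscle genes summed to 4.56 CPM in KI-KI replicate 2 and to 0.915 to 1.88 CPM in the other 8 testes. Epididymal genes summed to 69.9 CPM in KI-KI replicate 1 and to 21.1 to 36.0 CPM in the other 8 testes, with Lcn8 and Lcn9 at 0 in all 9. Lepr was at 9.16 CPM in KI-KI replicate 1 and at 8.91 CPM in KI-KI replicate 2. The part of muscle or epididymal tissue in the level of Lepr was not tested.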
